A study of Mus musculus with 24 samples.

Results

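The 9 mature miRNAs described here are mmu-miR-5099, mmu-miR-7230-3p, mmu-miR-7230-5p, mmu-miR-3963, mmu-miR-468-5p, mmu-miR-468-3p, mmu-miR-7210-5p, mmu-miR-7210-3p and mmu-miR-5126, which come from 6 hairpins. They are 9 of the 1978 mature miRNAs in the count table, all 9 were found there, and all 9 passed the abundance filter of each fit (10 counts or more in 3 or more libraries), miR-5126 with few counts to spare. They were selected on measured values, as poorly conserved miRNAs higher in Ago413-/- than in Ago413+/+ germ cells of these same libraries, with the other arm of each hairpin added. The levels in these 2 genotypes are therefore a description, and a member that passes the call rule there has not been tested by it. Their conservation was not examined here. The name of miRNAs that rise in null cells held for some members in spermatocytes, while miR-7230-5p had a lower mean in Ago413-/- than in Ago413+/+ round spermatids and miR-5126 in spermatocytes rested on 1 library.

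Small RNA was counted in 24 libraries, 4 for each of 3 genotypes in 2 cell types, enriched pachytene/diplotene spermatocytes and round spermatids from the testes of males aged 10 to 15 weeks on a C57BL/6J background. The Ago413 allele is a constitutive deletion that removes Ago1 and parts of Ago3 and Ago4. Every cell of an Ago413-/- animal is therefore homozygous for the deletion, and every cell of an Ago413+/- animal carries 1 deleted copy. Ago2 is present in all 3 genotypes. Each library came from the pooled testes of 2 to 5 mice, and the fractions were enriched on a gradient and not sorted, with a purity above 70% by microscopy per the labels. In such bulk fractions a lower share of a cell type and less RNA per cell cannot be told apart. Since the counts cover miRNAs alone, the loss of Ago1, Ago3 and Ago4 was not checked.

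A miRNA is made from a hairpin in its primary transcript. Drosha and Dicer cut the hairpin, and 1 arm (named -5p or -3p) is loaded into an Argonaute protein as the guide strand while the other arm is usually degraded, so that the arms of a hairpin can stand at very different levels. The guide finds its target mRNAs mainly through its seed, the bases near its 5′ end, and miRNAs with the same seed share predicted targets. Argonaute binding also protects the guide from decay, and male germ cells are known for a large set of miRNAs that are not shared with distant mammals.

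The mature sequences are shown because members of a family would share a seed, and these do not. RefSeq (GRCm38.p6) held 7 of the 9 mature sequences, printed 5′ to 3′ with bases 2 to 8, the seed, in capitals. The other members are miR-5099 and miR-468-3p.
mmu-miR-7230-3p: uUGAGUUGagacugucaguaggu
mmu-miR-7230-5p: aGACUGCUguuucucugaguggc
mmu-miR-3963: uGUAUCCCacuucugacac
mmu-miR-468-5p: gACUGAUGuacugauaagaaacucagu
mmu-miR-7210-5p: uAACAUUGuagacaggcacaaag
mmu-miR-7210-3p: uUAUAUGUaaguaacaauguggcu
mmu-miR-5126: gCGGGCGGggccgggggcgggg

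No pair of these 7 had a seed in common, and 0 other miRNAs of the count table with a single RefSeq sequence shared a seed with any of them. Their GC content ran from 29.2% in miR-7210-3p to 100% in miR-5126, where the median of the 373 miRNAs with a sequence among the 450 kept over all libraries was 45.8% and miR-5126 was the only one at 100%. At 27 bases miR-468-5p had the greatest length among these 373, of which 5 exceeded 25 bases, while miR-3963 with 19 bases was among the 5 with 19 or fewer. Among the 141767 GENCODE transcripts each of the 7 sequences matched only its own hairpin in sense.

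The hairpin of miR-5099, the most abundant member, and the hairpins for which both mature arms were in RefSeq are given next, 5′ to 3′. Capitals mark the mature arms, whose counts are compared further on, and the miR-5099 hairpin is shown without such marks.
Mir5099: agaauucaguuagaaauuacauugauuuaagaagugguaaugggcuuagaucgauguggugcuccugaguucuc
Mir7230: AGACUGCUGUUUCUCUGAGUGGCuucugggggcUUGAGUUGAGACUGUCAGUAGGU
Mir7210: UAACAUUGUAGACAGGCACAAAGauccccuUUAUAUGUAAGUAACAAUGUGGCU

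In GRCm38.p6, Mir5099 lies at chr12:36816205-36816278 on the plus strand, Mir7210 at chr14:24088877-24088930 on the plus strand and Mir7230 at chr5:113337590-113337645 on the minus strand. Mir3963 (chr3:151023792-151023862) and Mir468 (chr6:81896599-81896676) are also on the minus strand. None of these 5 hairpins overlapped another gene of the GENCODE annotation. Mir5126 (chr1:84695839-84695915, plus strand) lies antisense within an untranslated exon of Dner, which encodes a neuronal Notch ligand. In the antisense direction the mature miR-5126 sequence matched transcripts of Dner and of no other gene. The 6 hairpins are on 6 different chromosomes. The closest other miRNA gene was Mir7232, 936 bases from Mir468 on the same strand.

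The 24 library totals ran from 182904 to 1072637 counts. They were lowest in Ago413-/- spermatocytes (182904 to 369491 counts, against 311610 to 721314 in Ago413+/+ spermatocytes), and whether this depth bears on the results below was not tested. The limit behind a count of 0 is 3 counts, which was 20 CPM in the library with the lowest total. Levels are CPM, counts scaled to library size with TMM factors of all 24 libraries together, and since a miRNA library counts whole short molecules no length correction applies. Marker miRNAs of other cells were detected in every group, and the summed levels of the lists with the larger shifts stand beside the results of each cell type.

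The members covered a wide range of abundance. In Ago413+/+ spermatocytes miR-5099 stood 38th by mean level, at 5015 ± 1139 CPM (SD, n = 4), and miR-7210-5p was the next of the members at 1879 ± 421 CPM. miR-468-5p had 854 ± 291 CPM there. The remaining members were minor species, from 226 ± 91.2 CPM for miR-7230-5p down to 15.5 ± 5.90 CPM for miR-5126, which was 5 to 15 counts a library. In Ago413-/- spermatocytes miR-5099 stood 21st, with 2933 to 4038 counts a library. Together the 9 members took 0.701% to 1.00% of the counts in the Ago413+/+ spermatocyte libraries and 1.71% to 2.78% in the Ago413-/- ones. In round spermatids the same share was 0.520% to 1.01% in Ago413+/+ and 0.564% to 1.14% in Ago413-/-, and the genotypes overlapped. miR-5099 alone made up more of the counts than the other 8 members together in each Ago413-/- and each Ago413+/+ spermatocyte library. Its share was 1.02% to 1.91% in Ago413-/- and 0.401% to 0.600% in Ago413+/+.

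**Figure D1:**
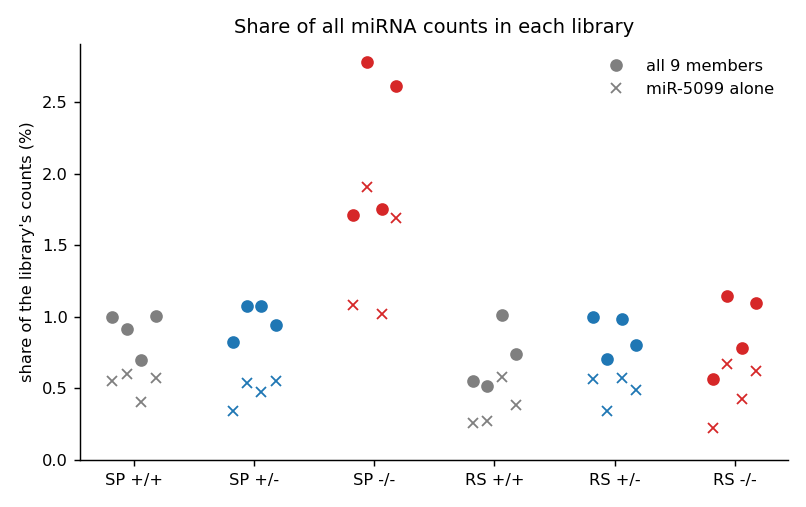
Share of each library's counts (percent, y axis) held by all 9 members (dots) and by miR-5099 alone (crosses), for the 4 libraries of each genotype in spermatocytes (SP) and round spermatids (RS). The 4 Ago413-/- spermatocyte libraries sit between 1.71% and 2.78%, above the other 20 libraries.

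In spermatocytes, all 9 members had a higher fitted level in Ago413-/- than in Ago413+/+, with a median log2 fold change of 1.35, where the median over all 404 miRNAs tested was -0.05. Of the 9, 5 passed the call rule used throughout (edgeR adjusted p under 0.05 and a log2 fold change of at least 1), where 1.24% of all miRNAs were called higher. These 5 were the only miRNAs called higher, so the 1.24% consists of members alone. Without Ago413+/+ replicate 1, 2 or 3 the count of members called was 2. Since the members were picked for this contrast, nothing is read from these counts. In 6 of the 9 all 4 Ago413-/- libraries were above all 4 Ago413+/+ libraries, against 7.18% of all miRNAs.

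miR-5099 had 5084, 5909, 3389 and 5679.8 CPM in the Ago413+/+ spermatocyte libraries (replicates 1 to 4) and 10398, 23238, 10873 and 19437 CPM in the Ago413-/- ones. The lowest null library was above the highest wild-type library, and null replicates 2 and 4 held the highest levels. The log2 fold change was 1.67 (standard error 0.35).

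miR-7230-3p, from the 3′ arm of its hairpin, had 71.5, 98.7, 72.5 and 111 CPM in Ago413+/+ and 154, 420.0, 374 and 347 CPM in Ago413-/- spermatocytes. Null replicate 1 was the lowest of its group but still above all wild-type libraries, and the log2 fold change was 1.85 (standard error 0.36). The 5′ arm of the hairpin, miR-7230-5p, had 357, 170.0, 159 and 216 CPM in Ago413+/+ and 198, 413, 408 and 529 CPM in Ago413-/-. Here the groups overlapped, through wild-type replicate 1 and null replicate 1, and the log2 fold change was 0.76 (standard error 0.45).

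miR-3963 had 71.5, 76.8, 25.7 and 111 CPM in Ago413+/+ spermatocytes. In Ago413-/- spermatocytes it had 146, 387, 245 and 236 CPM, without overlap, and replicate 2 was the highest library. The log2 fold change was 1.83 (standard error 0.48), on 49 to 66 counts in each null library.

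Both arms of the miR-468 hairpin had higher levels in the null spermatocytes. miR-468-5p had 897, 646, 622 and 1248 CPM in Ago413+/+ and 1693, 2786, 2002 and 2286 CPM in Ago413-/-, for a log2 fold change of 1.35 (standard error 0.32). The less abundant miR-468-3p had 268, 209.7, 138 and 241 CPM in Ago413+/+ and 279, 473, 456 and 428 CPM in Ago413-/-, for a log2 fold change of 0.92 (standard error 0.35). Neither arm overlapped between these genotypes, although null replicate 1 of miR-468-3p exceeded the highest wild-type library by a small margin.

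For miR-7210 the major arm had the clearer separation. miR-7210-5p had 2328, 1745, 1359.6 and 2084 CPM in Ago413+/+ and 3323, 5479, 3970.4 and 6388 CPM in Ago413-/-, for a log2 fold change of 1.34 (standard error 0.32), without overlap. miR-7210-3p had 63.2, 111, 133 and 226 CPM in Ago413+/+ and 299, 220.0, 315 and 337 CPM in Ago413-/-, for a log2 fold change of 1.13 (standard error 0.39). Wild-type replicate 4 of miR-7210-3p lay above null replicate 2, so that the groups overlapped.

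miR-5126 was different from the rest. Its counts were 5, 10, 15 and 7 in the Ago413+/+ spermatocyte libraries and 3, 69, 4 and 5 in the Ago413-/- ones, which is 8.31, 13.7, 17.6 and 22.2 CPM and 7.81, 460.0, 14.8 and 24.1 CPM. Only null replicate 2, the smallest library of all, stood out, and the other null libraries held 3 to 5 counts and lay within the range of the wild type or just outside it. The log2 fold change of 2.97 (standard error 1.02) was -0.06 without that library. Over the miRNAs with a sequence, levels in that library relative to the other null replicates rose by 0.36 log2 units per 10% of GC content. The same slope was -0.17 to -0.06 in the other null libraries, and miR-5126 has 100% GC. In replicate 2 the 52 miRNAs with 60% GC or more had a median of 0.04 log2 units, with 26 above 0. The rest had a median of -0.56 there. The part of GC content in the level of miR-5126 was not tested.

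In the order of the edgeR fit the members just inside the threshold in spermatocytes were miR-3963 (log2 fold change 1.83) and, tied with each other, miR-468-5p (1.35) and miR-7210-5p (1.34). The miRNAs just outside were miR-3535 (1.43), miR-470-5p (1.54) and miR-3968 (1.62), also tied with each other, and none of the 3 is a member.

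**Figure D2:**
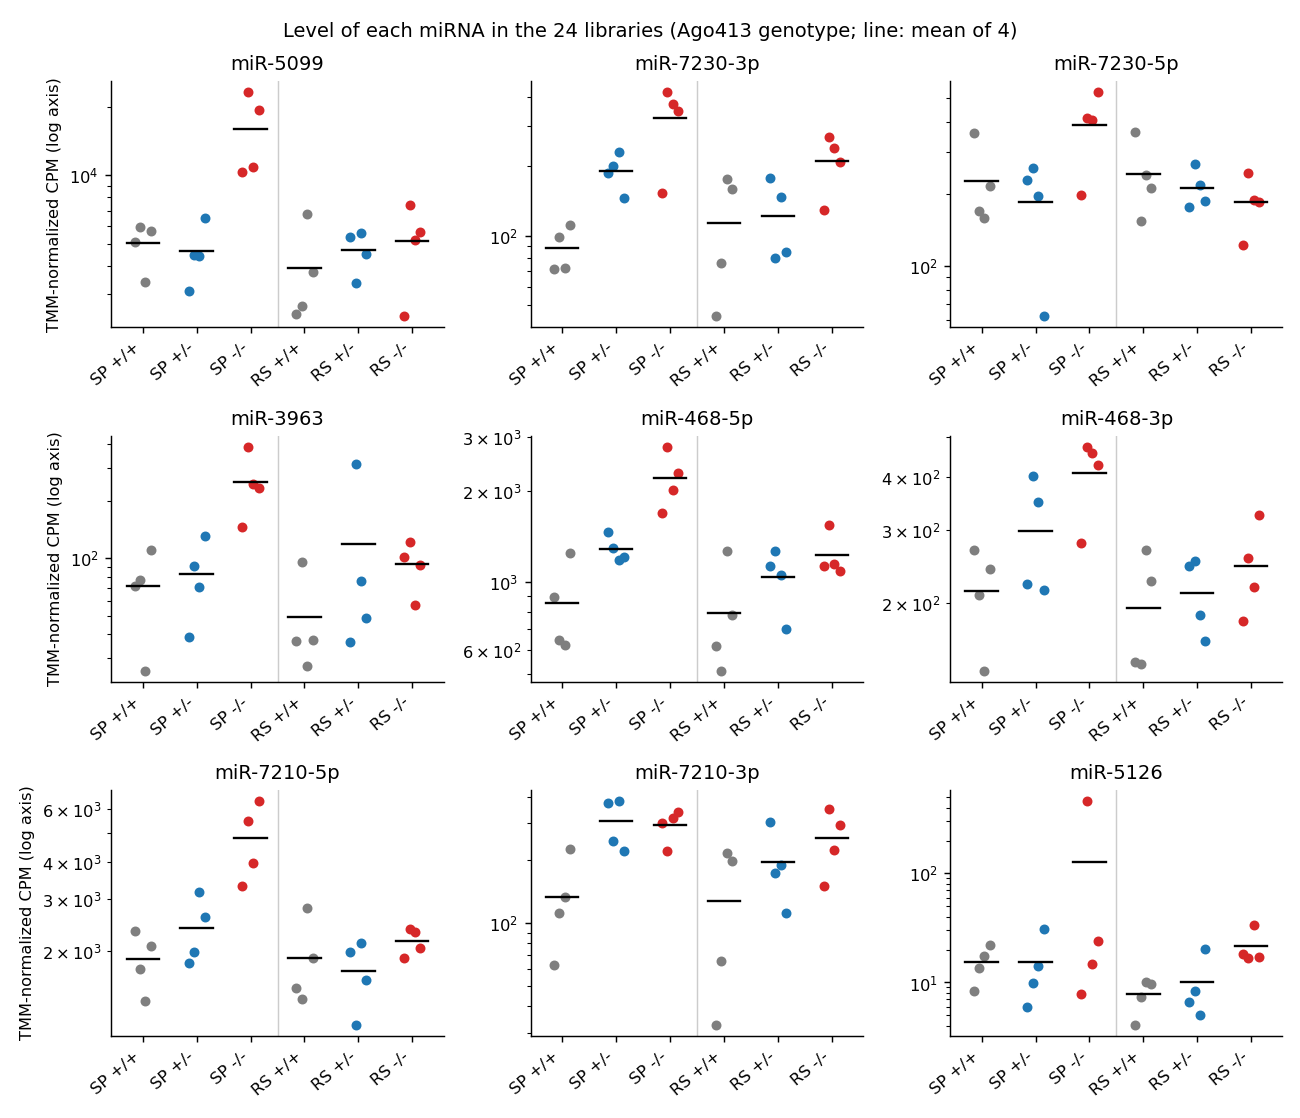
Level of each member (TMM-normalized CPM, log axis) in each of the 24 libraries, by cell type (SP, spermatocytes; RS, round spermatids) and Ago413 genotype, with the mean of each 4 libraries as a line. The Ago413-/- spermatocytes have the highest mean for 8 members, and the single high dot of miR-5126 at 460.0 CPM is replicate 2.

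Marker lists were followed in the same spermatocyte libraries. None of the 3 blood, 3 leukocyte, 5 peritubular and mesenchymal, 2 endothelial and 3 germ cell miRNAs tested was called. The germ cell list (miR-34b-5p, miR-34c-5p and miR-449a-5p) had a median log2 fold change of -0.78, and its summed level was 58090 to 112119 CPM in Ago413+/+ and 18751 to 78881 CPM in Ago413-/-. The leukocyte list had a median of -0.41, with sums of 229 to 470 CPM in Ago413+/+ and 93.3 to 400 CPM in Ago413-/-. The blood list had a median of 0.31, with sums of 34.3 to 2593 CPM and 513 to 3118 CPM. Their part in the members' levels was not tested.

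In round spermatids 8 of the 9 members had a lower log2 fold change than in spermatocytes, a difference that was not tested, and miR-7210-3p had 1.17 beside 1.13. Of the 9 members, 8 had a higher fitted level in Ago413-/- than in Ago413+/+, with a median log2 fold change of 0.81 where all 426 miRNAs tested had a median of 0.13. Only miR-5126 was called, where 7.51% of all miRNAs were called higher (32 higher and 37 lower, or 16 and 52 under library totals), and only miR-5126 had all null libraries above all wild-type libraries, which held for 8.22% of all. miR-5126 had 2, 8, 3 and 8 counts in Ago413+/+ and 11, 6, 26 and 8 counts in Ago413-/-, or 4.07, 7.31, 10.2 and 9.60 CPM and 18.3, 16.7, 33.6 and 17.3 CPM. The log2 fold change was 1.63 (standard error 0.48). It was kept in only 12 of the 16 alternative fits and passed the call rule in 8 of them. It did not pass without Ago413+/+ replicate 1 (1.24), without Ago413+/+ replicate 2 (1.43), under library totals (1.37) and with no filter (1.40). In this cell type miR-5126 reached 10 counts in 3 libraries, the minimum of the filter, and 2 of the 3 were null libraries, so that it entered the fit mainly through the group where it is high.

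miR-5099 had 2447, 2661, 6764 and 3773 CPM in the Ago413+/+ round spermatids and 2402, 7409, 5195 and 5628 CPM in the Ago413-/- ones. The lowest of these 8 libraries was a null library, the groups overlapped, and the log2 fold change was 0.58 (standard error 0.33). miR-7230-3p had 44.8, 75.9, 176 and 159.6 CPM and 129.8, 267, 242 and 209 CPM, with overlap through wild-type replicates 3 and 4 and null replicate 1. Its log2 fold change of 1.07 (standard error 0.39) lay just outside the threshold in the order of the edgeR fit, as did that of miR-200a-3p (1.06), while miR-29b-3p (1.07) and miR-511-3p (1.31) were just inside.

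miR-7230-5p went the other way. It had 363, 154, 240.5 and 211 CPM in Ago413+/+ and 123, 245, 189 and 185 CPM in Ago413-/- round spermatids, and the log2 fold change was -0.24 (standard error 0.29) with overlapping groups. miR-468-5p had 617, 513, 1263 and 779 CPM and 1133, 1546, 1144 and 1089 CPM, and the log2 fold change was 0.81 (standard error 0.27). Wild-type replicate 3 kept these groups from separating. With each library left out the log2 fold change ran from 0.44 to 1.05, the highest without that replicate.

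Of the other members in round spermatids, miR-3963 had 36.7, 95.98, 27.1 and 37.2 CPM in Ago413+/+ and 102, 123, 56.8 and 92.7 CPM in Ago413-/-. Wild-type replicate 2 was above 2 of the null libraries, and the log2 fold change was 0.97 (standard error 0.58). miR-7210-3p had 32.6, 65.8, 217 and 197 CPM and 149.8, 351, 222 and 293 CPM, and the log2 fold change was 1.17 (standard error 0.47), with wild-type replicates 1 and 2 below the other 6 of these libraries. These replicates, also the lowest for miR-7230-3p, have library numbers 29 and 41 in the labels, and wild-type replicates 3 and 4 have 71 and 77. The part of library number in this split was not tested. miR-7210-5p and miR-468-3p had log2 fold changes of 0.36 and 0.49 (standard errors 0.25 and 0.27), and each overlapped between the genotypes. For the abundant miR-7210-5p the null libraries spanned a narrow range, 1889 to 2377 CPM, inside that of the wild type, 1381 to 2788 CPM.

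Marker miRNAs of other cells were called here. In Ago413-/- round spermatids 3 of 3 blood miRNAs, 2 of 4 leukocyte, 1 of 2 endothelial and 1 of 5 peritubular and mesenchymal miRNAs were called higher, and 0 of 3 germ cell miRNAs. The blood list had a median log2 fold change of 2.11, and its summed level was 75.6 to 562 CPM in Ago413+/+ and 125 to 5292 CPM in Ago413-/-. The endothelial sum was 511 to 1990 CPM in Ago413+/+ and 1951 to 5858 CPM in Ago413-/-. The peritubular and mesenchymal list went both ways, with log2 fold changes from -1.74 to 1.14. Of its 5 miRNAs 3 were above 0, and the median was 0.19. The summed peritubular and mesenchymal level was 2788 to 10981 CPM in Ago413+/+ and 6616 to 7995 CPM in Ago413-/-. The leukocyte sum was 151 to 352 CPM in Ago413+/+ and 415 to 584 CPM in Ago413-/-. The part of these cells in the members' levels was not tested. No miRNA of these lists was at 0 in all libraries of the Ago413+/+ or the Ago413-/- group.

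Ago413+/- libraries took no part in the selection of the members, but their comparison with Ago413+/+ shares the wild-type libraries with it, so the values are set side by side and not tested. In Ago413+/- spermatocytes 7 of the 9 members had a log2 fold change above 0, with a median of 0.38, where all miRNAs had a median of 0.03. miR-7230-3p had 187, 200.2, 231 and 146 CPM, each library above all of the wild type, with a log2 fold change of 1.16 (standard error 0.36) against 1.85 in Ago413-/-. miR-7210-3p had 374, 247, 381 and 221 CPM and a log2 fold change of 1.24 (standard error 0.39), beside 1.13 in Ago413-/-. Its mean in Ago413+/- (306 ± 83.7 CPM) and Ago413-/- (293 ± 50.97 CPM) differed by less than their SDs.

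For miR-5099 the heterozygotes stood with the wild type. It had 3106, 4482, 4433 and 6486 CPM in Ago413+/- spermatocytes, a log2 fold change of -0.08 (standard error 0.34) against Ago413+/+, and all 4 Ago413-/- libraries lay above all 4 Ago413+/- ones. That separation was not particular to miR-5099, and it also held for miR-3963, miR-468-5p, miR-7210-5p and non-members such as miR-3535. miR-3963 and miR-7210-5p were likewise closer to the wild type, with log2 fold changes of 0.27 and 0.38 (standard errors 0.47 and 0.31). miR-468-5p stood between, at 1466, 1291, 1186 and 1206 CPM and a log2 fold change of 0.63 (standard error 0.32). miR-468-3p had 0.52, miR-7230-5p had -0.22 and miR-5126 had 0.0024 on the same scale.

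In Ago413+/- round spermatids the median log2 fold change of the members was 0.38 and that of all miRNAs was 0.0013, with 7 of 9 members above 0. The largest was that of miR-3963, 1.24 (standard error 0.57), which rested on replicate 2 in the values 36.3, 314, 75.97 and 48.8 CPM. miR-7210-3p had 0.73 and miR-468-5p had 0.49. The other 6 members had log2 fold changes from -0.12 for miR-7230-5p to 0.49 for miR-5126.

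**Figure D3:**
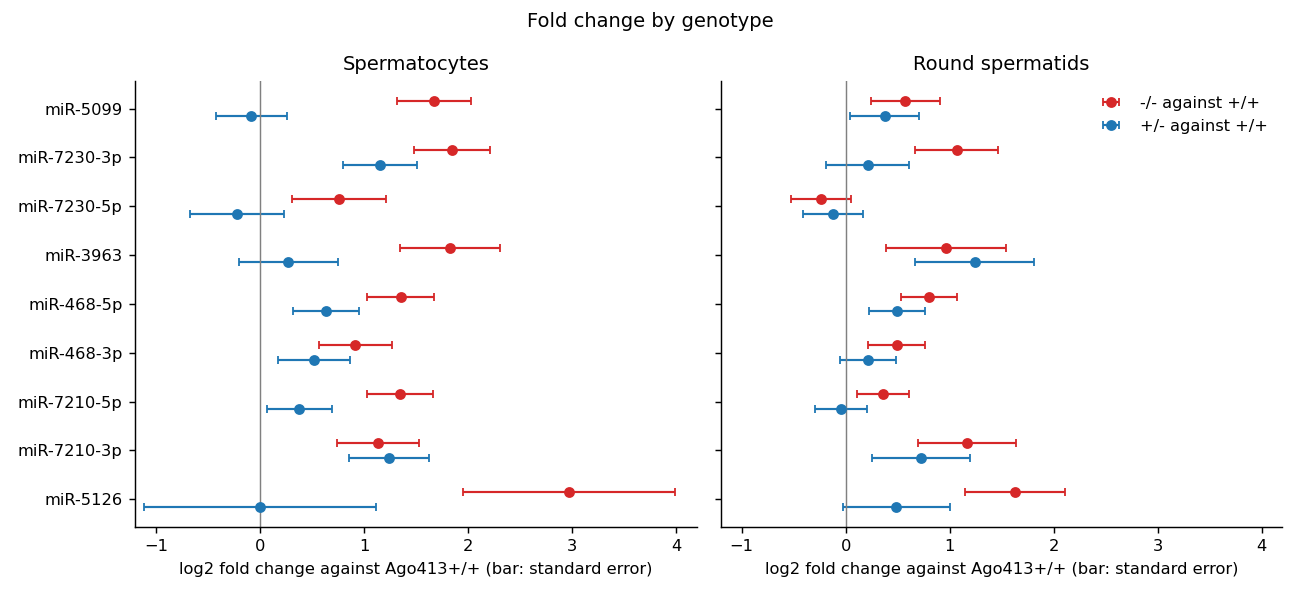
Log2 fold change against Ago413+/+ (x axis) of each member in spermatocytes (left) and round spermatids (right), for Ago413-/- (red) and Ago413+/- (blue), with bars for the standard error. Both genotypes are set against the same wild-type libraries; in spermatocytes miR-5099 has 1.67 in Ago413-/- and -0.08 in Ago413+/-, and miR-7210-3p has 1.13 and 1.24.

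Across the 6 groups the mean of Ago413-/- spermatocytes was the highest for 8 of the 9 members, and for miR-7210-3p it was the second after Ago413+/- spermatocytes. For miR-5099 the next group was Ago413-/- round spermatids (5158 ± 2073 CPM), and the 5 groups other than the null spermatocytes, down to Ago413+/+ round spermatids (3911 ± 1989 CPM), differed from each other by less than the larger of their SDs. The order for miR-7230-3p ran from 324 ± 117 CPM in null spermatocytes through 212 ± 59.8 CPM in null round spermatids and 191 ± 35.05 CPM in Ago413+/- spermatocytes to 88.5 ± 19.7 CPM in Ago413+/+ spermatocytes. For miR-7210-5p all groups but the null spermatocytes (4790.1 ± 1397 CPM) lay between 1710.1 ± 448 CPM (Ago413+/- round spermatids) and 2392 ± 612 CPM (Ago413+/- spermatocytes), and neighbours in that order differed by less than the larger of their SDs. In Ago413+/+ the ratio of the spermatocyte mean to the round spermatid mean was 0.775 to 1.45 for the 8 members other than miR-5126, for which it was 1.98. In Ago413-/- the same ratio was 1.15 for miR-7210-3p, 3.10 for miR-5099 and 5.90 for miR-5126, where it again rested on spermatocyte replicate 2.

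The Ago413+/- libraries, which the selection did not use, allowed a test of round spermatids against spermatocytes. Its filter, scaling and estimate of the spread came from all 24 libraries, which include those used for the selection. No member was called, and 0 of the 450 miRNAs tested were called (percent called 0, edgeR), with 15 at an unadjusted p under 0.05. DESeq2 also called 0, with 19 at an unadjusted p under 0.05. The adjusted p was 0.988 for each member. The log2 fold change was 0.02 for miR-5099, with a 95% interval from -0.71 to 0.75, and -0.48 for miR-7210-5p (-1.07 to 0.10). For miR-468-5p it was -0.31 (-0.91 to 0.29), and for miR-7230-5p it was 0.18 (-0.60 to 0.97). The bound farthest from 0 among these 4 intervals was the -1.07 of miR-7210-5p.

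Of the other members, miR-7230-3p had -0.65 (-1.44 to 0.14), miR-468-3p had -0.49 (-1.12 to 0.14) and miR-7210-3p had -0.65 (-1.58 to 0.27). miR-3963 had 0.53 (-0.62 to 1.67), and without round spermatid replicate 2 the sign turned, to -0.67. For miR-5126, at 5.06 to 31.1 CPM in these 8 libraries, the log2 fold change was -0.48 (-2.38 to 1.41), and a difference within that interval was not detectable at this depth. Of the 9 members 3 had a log2 fold change above 0, and the median was -0.48 against -0.02 for all miRNAs.

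Arm use could be followed for the 3 hairpins with both arms in the table. The share is the 3p count divided by the counts of both arms in the same library, so that it does not depend on scaling, and its 95% Wilson intervals cover counting error only. In miR-7230 the 3p share was 16.7, 36.7, 31.3 and 33.98% in the Ago413+/+ spermatocyte libraries and 43.7, 50.4, 47.9 and 39.6% in the Ago413-/- ones, with no overlap. In Ago413+/- spermatocytes it was 45.00, 43.8, 54.1 and 70.1%, also above every wild-type library. As the arms' levels chose the members, these shares in Ago413-/- and Ago413+/+ are a description. The Ago413+/- shares are set against the same wild-type libraries, so that comparison is a description too.

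In round spermatids the 3p share of miR-7230 was 11.00, 32.9, 42.3 and 43.04% in Ago413+/+, 50.2, 23.1, 40.3 and 31.2% in Ago413+/- and 51.3, 52.2, 56.2 and 53.01% in Ago413-/-. The null libraries lay within a narrow band above all others of that cell type. Replicate 1 of the wild type was the lowest in each cell type, at 16.7% of 258 counts in spermatocytes (interval 12.6% to 21.7%) and 11.0% of 200 counts in round spermatids.

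The other hairpins kept their major arm throughout. In miR-468 the 5p arm led in all 24 libraries, and the 3p share was 16.2% to 24.5% in Ago413+/+ spermatocytes and 14.1% to 18.6% in Ago413-/- ones, with overlap. In miR-7210 the 3p arm held 2.64% to 9.77% of the counts in Ago413+/+ spermatocytes, 7.82% to 16.98% in Ago413+/- and 3.86% to 8.27% in Ago413-/-. Its round spermatid shares were 2.12% to 9.44%, 6.54% to 13.3% and 7.35% to 12.9% in the same order of genotypes. Wild-type replicate 1 was again the lowest library for miR-7210 in each cell type.

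**Figure D4:**
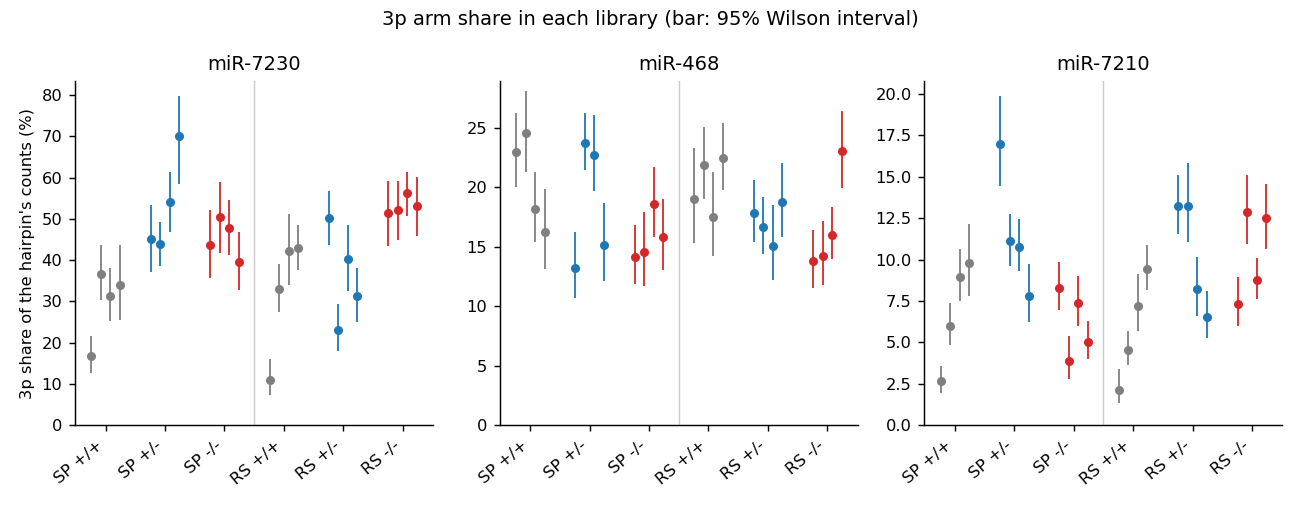
Share of the 3p arm (percent of both arms' counts, y axis, each panel with its own scale from 0) of miR-7230, miR-468 and miR-7210 in each library, by cell type (SP, RS) and Ago413 genotype, with 95% Wilson intervals. For miR-7230 the Ago413-/- round spermatids lie between 51.3% and 56.2%, above the 11.0% to 43.0% of Ago413+/+.

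The members belong by name to the miRNAs that entered miRBase late, whose numbers are high, except miR-468. Of all the other miRNAs with a number of 3000 or higher, 34 were tested in spermatocytes, and 30 of them had a log2 fold change above 0 in Ago413-/- against Ago413+/+. Their median was 0.82, where the 361 miRNAs that were neither members nor of this list had a median of -0.17 with 159 above 0. None of the 34 was called, and the 5 miRNAs called higher in this fit were all members. In 4 of the 34 all null libraries were above all wild-type libraries, where this held for 7.18% of all miRNAs. The 4 were miR-7215-5p, miR-3535, miR-3473b and miR-7241-3p, which are named after their values were seen. miR-7215-5p had a mean of 5.64 CPM in the wild type, where 3 counts are 3.51 to 9.53 CPM. miR-3535 had a mean of 224 CPM in the wild type and of 606 CPM in the null libraries. miR-3968 had 362 and 1105 CPM and miR-7217-3p had 251 and 648 CPM in the same order, each with overlap.

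The count was close to this under other settings. With library totals alone the median of all miRNAs in spermatocytes moved from -0.05 to -0.24, 29 of the 34 were above 0 with a median of 0.58, and the 9 members were all above 0 with a median of 1.13. Without Ago413-/- replicate 2, 30 of the 34 and 8 of the 9 members were above 0, with medians of 0.71 and 1.24. In round spermatids 29 of 38 late-numbered miRNAs were above 0, with a median of 0.38, and 1 was called, miR-3473b, with a log2 fold change of 1.03. There the count depended on the scaling, and under library totals 22 of 38 were above 0 with a median of 0.15, while 8 of the 9 members were above 0 with a median of 0.59. miRNAs named without an arm suffix, like miR-5099, miR-3963 and miR-5126, had a median of 0.37 over 27 in spermatocytes, 21 of them above 0, with 2 called lower.

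**Figure D5:**
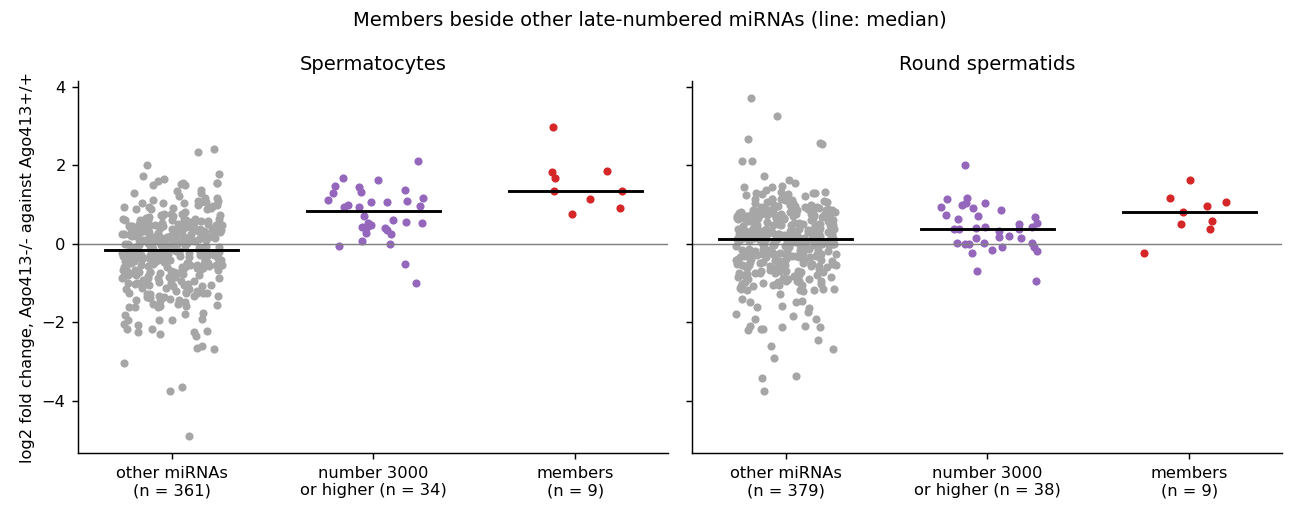
Log2 fold change in Ago413-/- against Ago413+/+ (y axis) of the 9 members (red), of the other miRNAs with a miRBase number of 3000 or higher (purple) and of all remaining miRNAs (grey), in spermatocytes (left) and round spermatids (right), with the median of each as a line. The members were selected on these values; the purple medians are 0.82 and 0.38 and the grey medians -0.17 and 0.11.

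Profiles over the 24 libraries were compared by the root mean square difference of log2 CPM, each miRNA centred on its own mean. The non-member nearest to miR-5099 was miR-3473b (0.437, where the median distance from miR-5099 to all others was 1.17), followed by miR-3968 (0.488) and miR-7217-3p (0.502). miR-3473b was also the nearest to miR-7230-3p (0.538), and miR-3968 to miR-3963 (0.720). For miR-7230-5p and for miR-468-3p it was miR-7214-5p (0.431 and 0.296). For miR-468-5p it was miR-425-5p (0.402), for miR-7210-5p miR-92a-3p (0.333) and for miR-7210-3p miR-467e-5p (0.559). The nearest to miR-5126 was miR-320-3p (0.802, where its median distance to all others was 1.55).

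Among the members themselves the closest pair was miR-468-5p with miR-468-3p, the arms of 1 hairpin, at 0.336. miR-7210-5p lay 0.378 from miR-468-3p, 0.379 from miR-468-5p and 0.399 from miR-5099, although these come from different chromosomes. The arms of miR-7210 were 0.765 apart and the arms of miR-7230 were 0.877 apart. Arms of 1 hairpin come from the same precursor, and all members were counted in the same libraries, so these distances share depth and library effects.

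The neighbours in the genome were few. miR-7232-3p, from the hairpin next to Mir468, had 66.6 CPM in Ago413+/+ spermatocytes and 142 CPM in Ago413-/- ones, and 40.4 and 45.5 CPM in round spermatids. miR-7229-5p, whose hairpin lies 13045 bases from Mir7230, had 83.2 and 117 CPM in spermatocytes and 67.2 and 80.1 CPM in round spermatids. Both belong to the late-numbered list above and neither was called.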

How the data were processed

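Small RNA libraries were made by the authors from 100 ng of total RNA, trimmed with TrimGalore, stripped of reads under 10 nt and matched to mouse miRBase miRNAs with miRDeep2. The deposited values are raw counts per mature miRNA, without normalization, and all 24 columns were used. Of the 1978 miRNAs, 754 had no count in any library. Groups and replicate numbers were taken from the labels.

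Rows entered a fit with 10 counts or more in 3 or more of its libraries, which left 404 miRNAs for the spermatocyte fit, 426 for the round spermatid fit and 450 for the fit of all libraries. edgeR 4.0.16 in R 4.3.3 fitted the quasi-likelihood model with TMM scaling, over the 12 libraries of a cell type for genotypes and over 24 libraries for cell types, with Benjamini-Hochberg adjustment. Standard errors were taken as the absolute log2 fold change over the square root of F. The authors tested miRNA families with DESeq2, whereas single miRNAs were tested here and DESeq2 1.42.0 was an alternative. The steps were checked on simulated data.

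Named miRNAs are the 9 members, the 3 nearest profiles to each (some are given), genomic neighbours, and 2 miRNAs on either side of the call threshold with those tied to them. A few marker miRNAs and late-numbered miRNAs are named in addition, the latter after their values were seen. Members and lists were chosen with earlier results of these data known. Libraries of a group are separate pools of mice per the labels' protocol, but nothing names the animals, so the p-values measure the spread between these libraries. No 2 replicate libraries agreed within sampling noise (chi-square over its degrees of freedom of 22.8 or more in 36 pairs). In Ago413-/- spermatocytes this ratio was 177 to 203 for pairs with replicate 2 and 25.3 to 41.7 for the other pairs. The largest ratio of all pairs was 260, between replicates 2 and 4 of Ago413+/- spermatocytes. Reads carry no molecular identifiers, so the intervals of arm shares cover counting error only, while those of log2 fold changes come from the fit and hold the spread between libraries. Replicate numbers were not treated as pairs, and the alternatives were other scalings, filters, samples, a replicate block, a library number term and leaving out each library.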

Additional observations from a re-analysis of the deposited data

Results flagged for a closer look

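In each of the 54 groups of 4 libraries (9 members in 6 groups) the most extreme library was compared with the other 3 by Dixon's ratio, which flags about 1 in 20 groups by chance, or 2.7 of 54. It marked 5. miR-5126 in Ago413-/- spermatocytes had 460.0 CPM in replicate 2 (69 counts) and 7.81 to 24.1 CPM in the other 3 libraries. miR-5126 also had 33.6 CPM in replicate 3 of Ago413-/- round spermatids, where the others had 16.7 to 18.3 CPM. miR-3963 had 314 CPM in replicate 2 of Ago413+/- round spermatids (36.3 to 76.0 CPM in the others) and 96.0 CPM in replicate 2 of Ago413+/+ round spermatids (27.1 to 37.2 CPM). miR-468-5p had 1546 CPM in replicate 2 of Ago413-/- round spermatids, against 1089 to 1144 CPM. The causes were not tested.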

How the results depend on the processing

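In Ago413+/- the number of miRNAs called between round spermatids and spermatocytes was 0, 5 with no filter on low counts and 1 with only the 2 groups compared, and it stayed at 0 to 0 when each library was left out. No member was among these calls. In Ago413-/- against Ago413+/+ spermatocytes the number called was 18, 61 with DESeq2 and 55 with no filter, and 11 to 19 when each library was left out, with 11 without Ago413+/+ replicate 2 or 3. In round spermatids it was 69, 42 with at least 10 counts in every library, and 51 to 74 with each library left out. The cause of these shifts was not tested.

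The replicate block gave 0 calls between the cell types, 14 in spermatocytes and 62 in round spermatids. Whether libraries with the same number share mice is not given in the sources used here, and they were not treated as pairs. Their deviations correlated at 0.03 to 0.43 between the cell types of Ago413+/-, at -0.13 to 0.32 between the genotypes in spermatocytes and at -0.18 to 0.15 in round spermatids, and not every library correlated best with its own number. With only the 8 Ago413+/- libraries, chosen after seeing the data, the replicate block gave 1 call.

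The sign of some small differences turned. Between the cell types in Ago413+/-, the log2 fold change of miR-5099 was -0.034 with only the 2 groups compared and -0.027 with the replicate block on these 8 libraries. With each library left out it ran from -0.13 to 0.21, with the sign turned without spermatocyte replicate 1 or round spermatid replicate 1 or 3. The same range was -0.11 (without spermatocyte replicate 4) to 0.39 for miR-7230-5p, -0.67 (without round spermatid replicate 2) to 0.84 for miR-3963 and -1.07 to 0.0096 (without spermatocyte replicate 4) for miR-5126. In Ago413-/- against Ago413+/+ spermatocytes it was -0.063 (without Ago413-/- replicate 2) to 3.33 for miR-5126. miR-5126 had 2 to 26 counts in all libraries but 1, and the parts of depth and GC content in its values were not tested.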
